A study of Mus musculus with 2 samples.

Results

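The proteasome subunit genes were compared between 1 library of haematopoietic stem cells (HSCs) from control mice and 1 from mice with an endothelial deletion of Angptl2. Members were the protein-coding genes whose symbol is Psma, Psmb, Psmc, Psmd, Psme or Psmf followed by a number alone, without the immunoproteasome genes Psmb8, Psmb9 and Psmb10. There were 41 such genes among the 54531 in the table. The HSCs came from bone marrow, and how they were isolated is not stated in the labels. The control genotype was Angptl2fl/fl, that is, mice with loxP-flanked alleles of Angptl2, the gene for an angiopoietin-like protein that cells secrete. The other genotype, Cdh5-Cre;Angptl2fl/fl, carried the same alleles and a Cre recombinase under control of the Cdh5 promoter, which is active in endothelial cells. The control library's description and column name mention Cdh5 and Cre, so whether those mice carried Cre is not settled by the labels. The labels do not state how many mice were pooled per library. Each genotype has a single library, so nothing could be tested across samples. "Higher" and "lower" therefore refer to the library of the deletion genotype relative to that of the control.

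The proteasome is the protease that degrades proteins tagged with ubiquitin. Its barrel-shaped core is built of stacked rings, with outer rings of alpha subunits that gate the channel and inner rings of beta subunits, some of which hold the catalytic sites. A cap made of a base, whose ATPases unfold the substrate, and a lid, which removes ubiquitin, docks on the alpha ring, and activators can dock there in its place. HSCs are known for a low rate of protein synthesis and for sensitivity to misfolded protein.

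Values are FPKM, that is, fragments scaled to the length of the gene model and to the depth of the library. A gene model holds all annotated exons, so FPKM compared between genes also depends on the lengths of their models. The deposited values were scaled to 17378600 (control) and 16843100 (deletion) fragments. The commonest number of fragments on a gene was 1 for the control (1389 genes) and 6 for the deletion library (453 genes, against 295 with 1 fragment). Mitochondrially encoded genes took 8.91% of the control FPKM total and 13.7% of that of the deletion library. Member counts scaled without these genes are given beside the main ones. Angptl2 stood at 0.27 FPKM (29 fragments) in the control and 0.18 FPKM (19 fragments) in the deletion library, too low to check the labels. Of 12 HSC and progenitor markers 11 reached 1 FPKM in each library, with summed levels of 126 and 109 FPKM in the control and deletion libraries. All 8 neutrophil markers did too, and their sums of 3006 and 3159 FPKM held opposite differences. Elane was at 422.5 and 1084 FPKM and Mpo at 281 and 723 FPKM, both genes of early granulocytes, whereas the other 6 were lower in the deletion library, such as Ngp at 455 and 175 FPKM and Ltf at 112 and 36.3 FPKM. All 6 erythroid markers reached 1 FPKM, with sums of 1664 and 1963 FPKM, of which Car1 took 1315 and 1629 FPKM, while Hba-a1, Hbb-bt and Alas2 were lower in the deletion library. Markers of megakaryocytes (3 and 4 of 5 at 1 FPKM) summed to 48.5 and 138 FPKM, with Gp1bb listed at 0 in the deletion library. Those of macrophages (5 and 3 of 5) summed to 32.2 and 14.5 FPKM. B and plasma cell markers (4 of 5 in each library) summed to 28.7 and 25.8 FPKM. T and NK markers (2 and 1 of 5) summed to 30.7 and 78.8 FPKM, of which Nkg7 alone took 29.1 and 78.01 FPKM. Cd4 was at 1.04 and 0.52 FPKM. Cd3e and Cd3g had only 6 and 7 fragments in the control and were listed at 0 in the deletion library. Endothelial markers (2 of 5 in each library) summed to 6.46 and 5.75 FPKM. Cdh5 was near the floor in both libraries, with 2 fragments in the control and listed at 0 in the deletion library. None of 4 stromal markers reached 1 FPKM. The part of these other cells in the results was not tested. In a bulk library, more cells of a type and more RNA per cell cannot be told apart.

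Proteasome genes were abundant in both libraries, and the largest group difference lay in the alpha ring, whose 8 genes were all higher in the deletion library. Of the 41 members, 40 averaged 1 FPKM or more over both libraries and entered the comparison, and Psmb11 did not. Ratios are given as log2((FPKM + 1)/(FPKM + 1)), deletion over control, and called the log2 ratio. The median log2 ratio of the 40 members was 0.10, against -0.011 for all 12325 genes at that minimum and 0.034 for the 2730 protein-coding genes averaging 20 FPKM or more. At 1.2-fold or more, 12 members were higher, against a background of 17.6% of all genes tested and 14.9% of those protein-coding genes. Lower by as much was 1 member, against 18.6% and 6.78%, and 27 lay between. Above 0 were 29 of the 40, against 48.4% of all genes tested and 57.0% of the protein-coding genes at 20 FPKM, and 11 lay below 0, against 51.6% and 43.0%. The split at 1.2-fold depended on the scaling. With each library set to the same FPKM total, called a common total from here, 3 members were higher and 4 lower, against 14.6% and 37.7% of the 15021 genes then tested. Scaled without mitochondrially encoded genes, 9 were higher and 2 lower, against 13.6% and 24.1%. Under a common total 18 members lay above 0 and 22 below, while 32% of all genes lay above 0 and their median was -0.16. At 2-fold or more 1 member was higher, Psma8, against a background of 2.47%, and none was lower, against 3.38%. The counts at 1.5-fold were also 1 and 0, against 5.74% and 6.08%.

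Counting error was read from the fragments behind each value. A 95% counting interval (exact Clopper-Pearson, on the ratio without a pseudocount) lay wholly above 0 for 21 of the 39 members with whole fragment numbers, against 26.8% of 11714 genes. It lay wholly below 0 for 7 members, against 30.0%, and included 0 for 11. With the deletion library's fragments divided by 6, a divisor chosen after seeing the data, 16 members lay above, against 13.9%, 4 below, against 15.0%, and 19 included 0. These intervals cover counting error only, and they hold no spread between mice. The 11714 genes were not matched to the members in fragment number, and more fragments give narrower intervals.

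**Figure D1:**
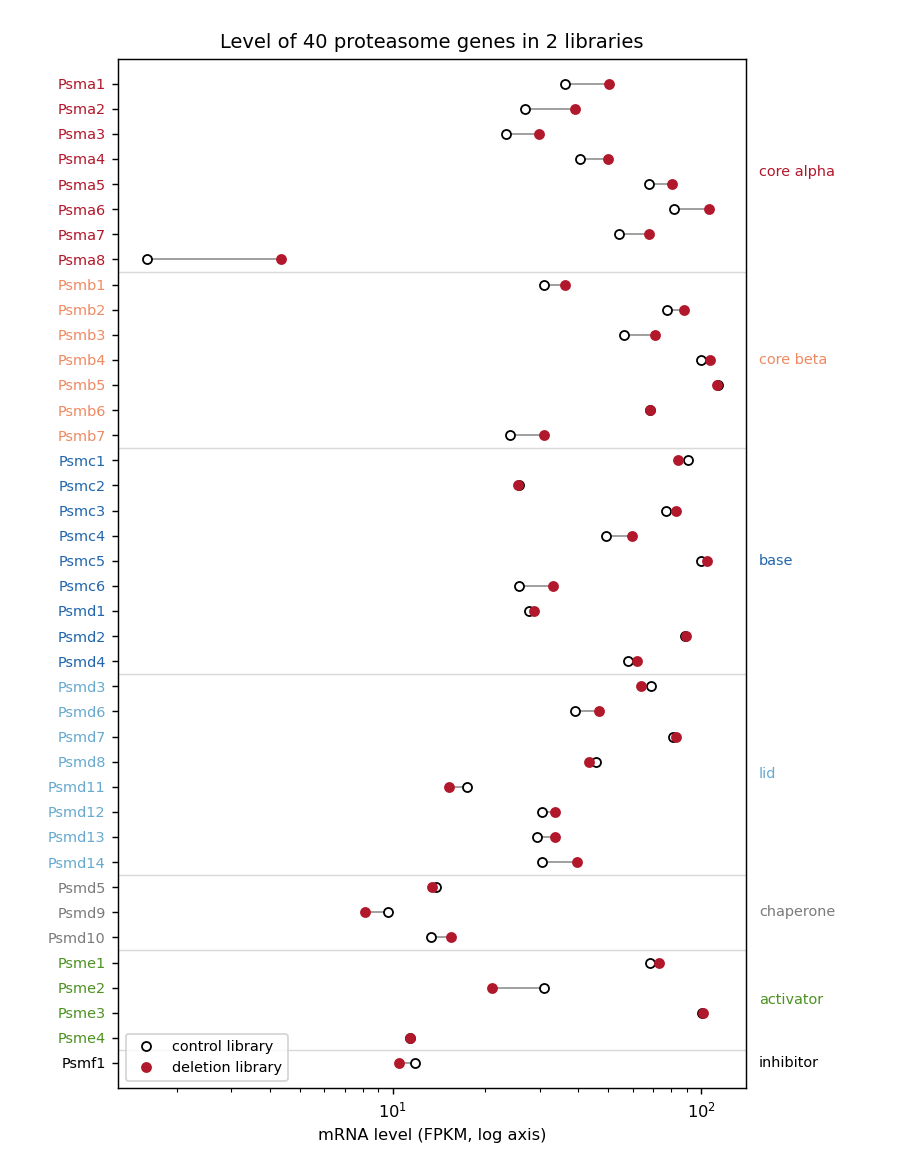
Level of the 40 members with a mean of at least 1 FPKM, on a log axis in FPKM, with open points for the control library and filled points for the deletion library, grouped by role. All 8 alpha genes lie to the right in the deletion library, while most base and lid genes overlap or lie close together, and Psma8 stands far below the rest at 1.60 and 4.35 FPKM.

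The alpha subunits form the gate of the core and the surface on which caps dock. Psma2 had the largest ratio of the abundant members, at 26.9 FPKM in the control and 39.1 FPKM in the deletion library, which is 1.45-fold. Its log2 ratio was 0.52, and the counting interval ran from 0.45 to 0.63. Psma1 followed at 36.2 and 50.2 FPKM, or 1.39-fold, with an interval from 0.38 to 0.56. Both genes were thus higher in the deletion library by more than counting error allows, with or without the divisor of 6, under which the intervals began at 0.38 for Psma2 and 0.31 for Psma1. Psma6, the alpha gene with the highest FPKM, was at 81.6 and 105.9 FPKM, and Psma7 at 54.2 and 67.9 FPKM. Psma3 was at 23.3 and 29.9 FPKM and Psma4 at 40.4 and 49.8 FPKM. Psma5 had the smallest ratio of the ring, at 68.0 and 80.7 FPKM, a log2 ratio of 0.24, and it alone of the ring did not reach 1.2-fold. All 7 of these ubiquitous subunits had intervals wholly above 0, also with the divisor, and log2 ratios from 0.24 to 0.52. They stayed above 0 under every scaling tried, with the lowest value that of Psma5 at 0.098 under a common total.

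Psma8, the testis-type alternative to Psma7, was at 1.60 FPKM in the control and 4.35 FPKM in the deletion library. That is 2.72-fold without a pseudocount and a log2 ratio of 1.04, which became 0.50 with a pseudocount of 5. Its values did not fall on whole fragment numbers, so no interval can be given. Psma7 stood far above Psma8 in both libraries, at 54.2 and 67.9 FPKM.

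The summed level of the 7 ubiquitous alpha genes was 331 FPKM in the control and 423 FPKM in the deletion library, a ratio of 1.28. Relative to the summed base genes, the alpha sum was 0.61 in the control and 0.74 in the deletion library. Relative to the lid it was 0.96 and 1.18, and relative to the beta genes 0.70 and 0.82. These ratios within a library do not depend on how the libraries were scaled, and each was higher in the deletion library, by 1.22, 1.22 and 1.17 times.

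The beta subunits of the inner rings were split. The catalytic genes Psmb5, which encodes the chymotrypsin-like site, and Psmb6, which encodes the caspase-like site, were nearly equal in both libraries. Psmb5, the member with the highest FPKM, was at 113.2 FPKM in the control and 112.9 FPKM in the deletion library. Psmb6 was at 68.4 and 68.3 FPKM. Their counting intervals, -0.10 to 0.094 and -0.088 to 0.084, included 0. Psmb7, which encodes the trypsin-like site, was at 24.1 and 31.0 FPKM, a log2 ratio of 0.35 with an interval from 0.26 to 0.47. The 3 catalytic genes therefore did not share a ratio. Exons of Psmb7 overlap those of Nek6 on the other strand by 405 bases, and Nek6 was at 0.95 and 0.63 FPKM. Since the use of strand in counting is not stated, reads of such neighbours cannot be told apart. Of the other overlaps on the opposite strand, Psmd13 shares 342 exon bases with Sirt3, at 6.14 and 5.56 FPKM, and Psmc3 shares 215 with Slc39a13, at 4.67 and 5.02 FPKM. Psmd9 shares 1849 with Gm26745, listed at 0 in both. Psma4, Psma5, Psmd1, Psmd3 and Psme1 overlap opposite-strand genes by 14 to 252 bases.

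Among the structural beta genes, Psmb3 was at 56.1 FPKM in the control and 70.9 FPKM in the deletion library, with a log2 ratio of 0.33. Psmb1 was at 31.1 and 36.2 FPKM and Psmb2 at 77.3 and 88.3 FPKM, log2 ratios of 0.21 and 0.19. Psmb4 had the smallest ratio of these 4, at 100.3 and 106.9 FPKM, and its log2 ratio of 0.091 turned to -0.055 with a common total. The median log2 ratio of the 7 beta genes was 0.19, which was 0.045 with a common total. Psmb11, the beta subunit of the thymic epithelium, was at 0.11 FPKM (9 fragments) in the control, and the deletion library lists it at 0, where a count of 0 allows up to 3 fragments.

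Most base genes differed little between the libraries. The base holds 6 ATPases, Psmc1 to Psmc6, which form the ring that unfolds substrates, and the non-ATPase subunits Psmd1, Psmd2 and Psmd4. Psmc6 was the exception with the largest ratio, at 25.7 FPKM in the control and 33.2 FPKM in the deletion library, a log2 ratio of 0.36 with an interval from 0.27 to 0.47. Psmc4 was at 49.3 and 59.6 FPKM, a log2 ratio of 0.27. The other 4 ATPase genes had log2 ratios from -0.10 for Psmc1, at 90.5 and 84.2 FPKM, to 0.099 for Psmc3, at 77.2 and 82.8 FPKM. Psmc2 was at 25.6 and 25.5 FPKM and Psmc5 at 100.1 and 104.4 FPKM. Of the 6 ATPase genes 2 were thus 1.2-fold higher or more and 4 within it, beside 17.6% of all genes tested higher by as much.

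Psmd1 and Psmd2, the large scaffold subunits, were nearly level. Psmd2 was at 88.9 FPKM in the control and 89.4 FPKM in the deletion library (6239 and 6080 fragments), with an interval from -0.043 to 0.059, the narrowest of the members. Psmd1 was at 27.8 and 28.6 FPKM. Psmd4, a receptor for ubiquitin chains, was at 58.0 and 61.8 FPKM, a log2 ratio of 0.091 that turned to -0.055 with a common total. The median log2 ratio of the 9 base genes was 0.061, and it became -0.086 with a common total.

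Lid genes went both ways. Psmd14, which encodes the deubiquitinase that strips ubiquitin from substrates, had the highest ratio of the lid, at 30.5 FPKM in the control and 39.5 FPKM in the deletion library. Its log2 ratio was 0.36 with an interval from 0.27 to 0.47. Psmd6 was at 39.1 and 46.8 FPKM, Psmd13 at 29.4 and 33.6 FPKM and Psmd12 at 30.5 and 33.6 FPKM. On the other side, Psmd11, a scaffold of the lid that contacts the core, was at 17.4 FPKM in the control and 15.3 FPKM in the deletion library. Its log2 ratio was -0.18 with an interval from -0.28 to -0.092. Psmd3 was at 69.0 and 64.0 FPKM and Psmd8 at 45.8 and 43.2 FPKM, while Psmd7 was level at 81.4 and 82.9 FPKM. Of the 8 lid genes 1, Psmd14, was 1.2-fold higher or more, beside 17.6% of all genes tested. The median log2 ratio of the lid was 0.081, or -0.065 with a common total.

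The assembly chaperones of the base had lower FPKM than the base subunits, but their gene models differ in length. These hold 7230 exon bases for Psmd5, 7248 for Psmd9 and 1469 for Psmd10. Fragments were 1739 and 1637 on Psmd5, near the 1562 and 1954 on the base gene Psmc6. There were 1219 and 995 on Psmd9 and 341 and 382 on Psmd10. Psmd5 was at 13.8 FPKM in the control and 13.4 FPKM in the deletion library, Psmd9 at 9.68 and 8.15 FPKM, and Psmd10, known as gankyrin, at 13.4 and 15.4 FPKM. None passed 1.2-fold. The counting interval of Psmd9, -0.37 to -0.13, lay below 0, and those of Psmd5 and Psmd10 included 0. Psmf1, which encodes the inhibitor PI31, was at 11.8 and 10.5 FPKM, a log2 ratio of -0.16.

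**Figure D2:**
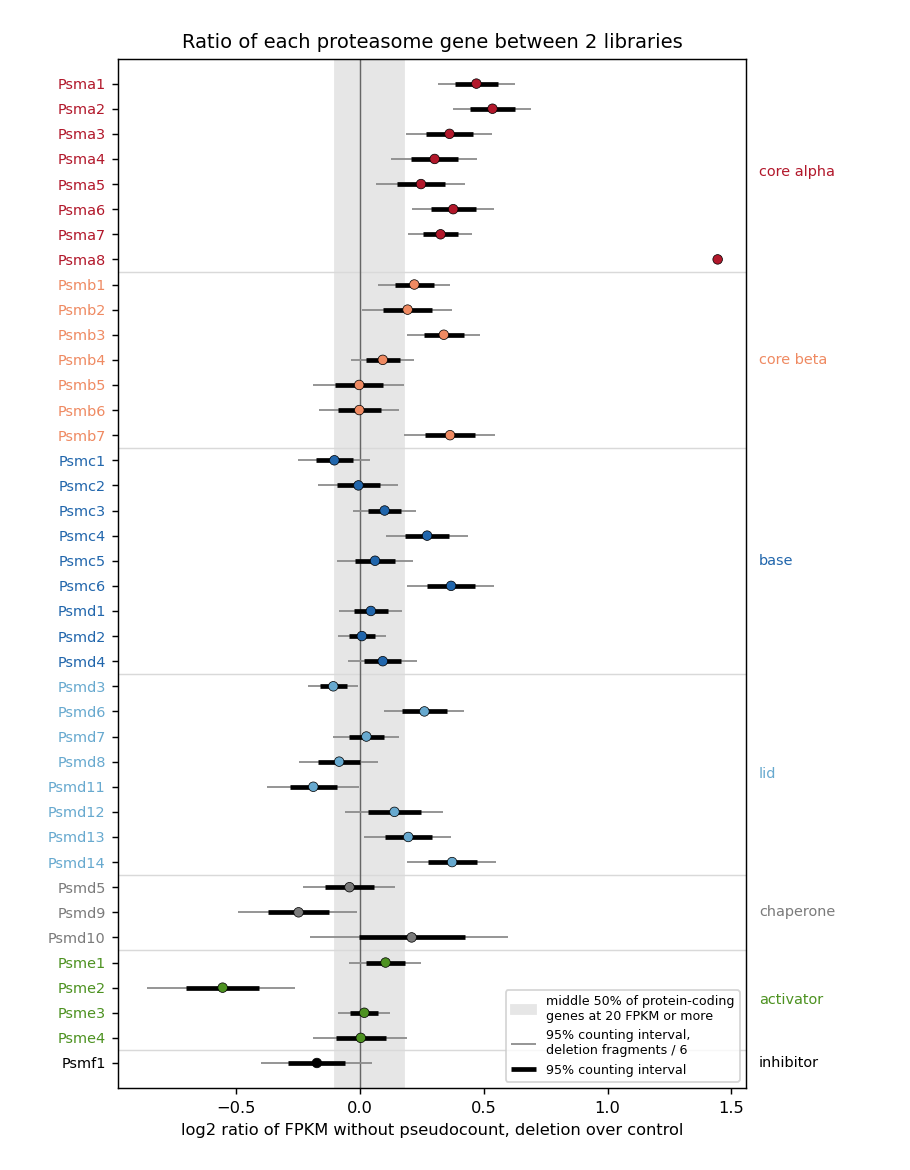
Ratio of each of the 40 members on the log2 scale without a pseudocount, deletion over control, with 95% counting intervals (thick, fragments as counted, and thin, deletion fragments divided by 6) and a grey band for the middle 50% of protein-coding genes at 20 FPKM or more on the log2(FPKM + 1) scale. All alpha genes lie right of the band, which runs from -0.099 to 0.18, Psme2 lies far to the left at -0.55, and Psma8 has no interval.

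Among the activators, Psme2 was the 1 member past 1.2-fold in the lower direction. Psme1 and Psme2 encode the PA28 subunits, which form 1 mixed ring induced by interferon gamma. Psme1 was at 68.1 FPKM in the control and 73.1 FPKM in the deletion library, whereas Psme2 was at 30.9 and 21.04 FPKM, a log2 ratio of -0.53 with an interval from -0.70 to -0.41. The genes lie near each other on chromosome 14 (GRCm38), Psme1 at chr14:55578123-55581529 on the plus strand and Psme2 at chr14:55587441-55591113 on the minus strand. Psme3, which encodes the nuclear activator PA28 gamma, was at 100.4 and 101.6 FPKM. Psme4, which encodes the large nuclear activator PA200, was at 11.3 and 11.4 FPKM, and both counting intervals included 0.

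The value of Psme2 was tied to that of Psme2b, a single-exon copy annotated as protein-coding at chr11:48945354-48946190 on the minus strand, which the naming rule left out. Psme2b was at 27.4 FPKM in the control and 45.0 FPKM in the deletion library, a log2 ratio of 0.70 against the direction of Psme2. Fragments were 947 and 625 on Psme2 and 399 and 635 on Psme2b. Added together they were 1346 and 1260, and with the fragments of the copy added to Psme2 its log2 ratio was -0.049, with an interval from -0.16 to 0.062. Psme2b held 29.6% of the pair's fragments in the control and 50.4% in the deletion library. A lower level of Psme2 and a different division of fragments between the genes cannot be told apart.

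The coding sequences of Psme2 and Psme2b differ at 5 of 717 aligned bases (99.3% identity, no gap), in GENCODE transcripts on GRCm38. The substitutions from Psme2 to Psme2b, counted from 1 at the first coding base, were C312T, A369G, C489T, C519T and C543T. Of 568 windows as long as a read (150 bases), 32.9% held no difference, 83.1% held at most 2, and none held more than 3. A window stands for 1 read within the coding sequence, whereas a fragment has 2 paired reads and can reach outside it. Of all runs of 50 bases in Psme2b transcripts, 68.7% are also in those of Psme2. Capitals mark the differing bases below. The first window with 3 differences, coding bases 394 to 543, is shown to make plain how little separates the coding sequences. In the genome it spans chr14:55588049-55588479 for Psme2, with the introns removed here, and chr11:48945576-48945725 for Psme2b, both on the minus strand.
Psme2: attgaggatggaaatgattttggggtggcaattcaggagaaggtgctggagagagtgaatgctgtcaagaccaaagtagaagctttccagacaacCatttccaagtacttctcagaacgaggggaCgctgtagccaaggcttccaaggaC
Psme2b: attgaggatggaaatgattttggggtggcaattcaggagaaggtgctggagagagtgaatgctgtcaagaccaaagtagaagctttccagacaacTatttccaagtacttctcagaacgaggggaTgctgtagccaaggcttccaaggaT

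Copies were then counted for all members. A copy was a gene at another place whose transcripts share at least 100 exact runs of 50 bases with a member on the same strand. Shared runs made up from 15.4% (Gm6474) to 100% (Gm13835) of a copy's runs, so the rule does not make every copy near-identical. Where copies were added to a member, all their fragments were added, shared or not. There were 14 copies of 11 members, and the other 30 members had none by this rule. Of the copies 9 were higher in the deletion library, 2 were lower and 3 were at 0 in both, beside 48.4% of all genes tested above 0 and 51.6% below. Psma3 shared most with its copy: every run of 50 bases of the processed pseudogene Gm13835 (chr6:31141979-31142663, minus strand) is also in Psma3 transcripts. Gm13835 was at 59.1 FPKM in the control and 88.1 FPKM in the deletion library (704 and 1016 fragments), against 1576 and 1963 on Psma3. With its copies added, the log2 ratio of Psma3 was 0.42 against 0.35 alone, so this alpha gene was higher either way. The same addition gave 0.36 for Psma4 (0.30 alone), 0.23 for Psma5 (0.24 alone), 0.34 for Psmb3 (0.33 alone) and 0.045 for Psmb5 (-0.0029 alone). For Psmc1 it gave -0.11 and for Psmd2 0.013. Psma2 has a copy, Gm6474, that was at 0 in both libraries, and Psma1, Psma6 and Psma7 have none.

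**Figure D3:**
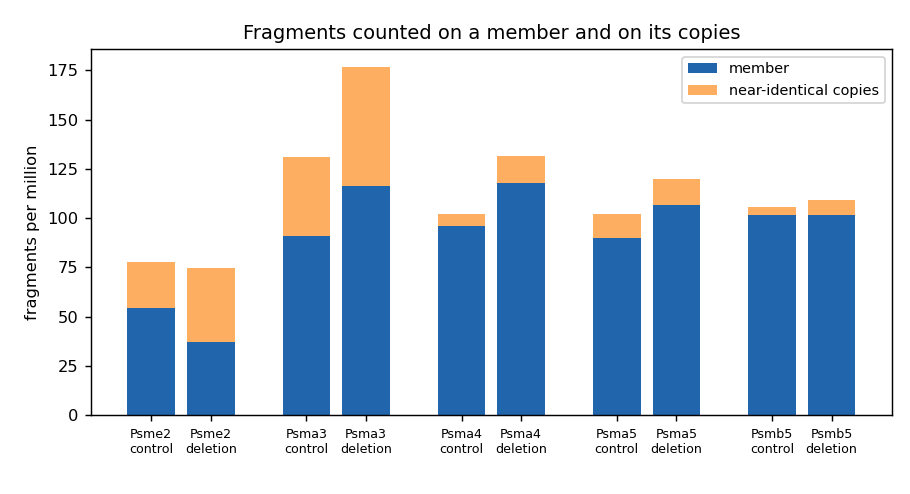
Fragments (scaled to 1000000 per library) counted on 5 members (dark) and on their copies (light, labelled near-identical), stacked, for the control and deletion libraries. The vertical axis starts at 0. The stacked height of Psme2 with Psme2b is nearly equal in both libraries, 77.5 and 74.8, while that of Psma3 with its copies is 131 and 177.

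Genes with shorter coding sequences tended to have higher log2 ratios than genes with longer ones. The class medians below were not recomputed under a common total, where the median of all genes was -0.16. Among nuclear protein-coding genes averaging 20 FPKM or more, the median log2 ratio was 0.16 for 597 genes of up to 600 coding bases and 0.097 for 445 genes above 600 and up to 900. It was 0.034 for 733 genes up to 1500 bases and -0.056 for 943 longer ones. In the latter 3 classes the members had medians of 0.24 (17 genes), 0.099 (13 genes) and 0.0078 (3 genes). Spearman's rho between log2 ratio and coding length was -0.41 over 2718 such genes. At a minimum of 1 FPKM it was -0.33 over 10224 genes and -0.33 over the 40 members. These genes share both libraries and are not replicates. Alpha genes have coding sequences of 702 to 789 bases, beta genes 603 to 831, base genes 1137 to 2859 and lid genes 930 to 1590. Set against genes of their own length class, all 7 ubiquitous alpha genes lay above the upper quartile of 0.23, as did 2 of 7 beta genes, Psmb3 and Psmb7. In their own classes 2 of 9 base genes (Psmc4 and Psmc6) and 3 of 7 lid genes (Psmd6, Psmd13 and Psmd14) lay above the upper quartile. Over all 33 members at 20 FPKM, 14 lay above it, 16 between the quartiles and 3 below. The part of coding length in the alpha result was not tested beyond this.

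**Figure D4:**
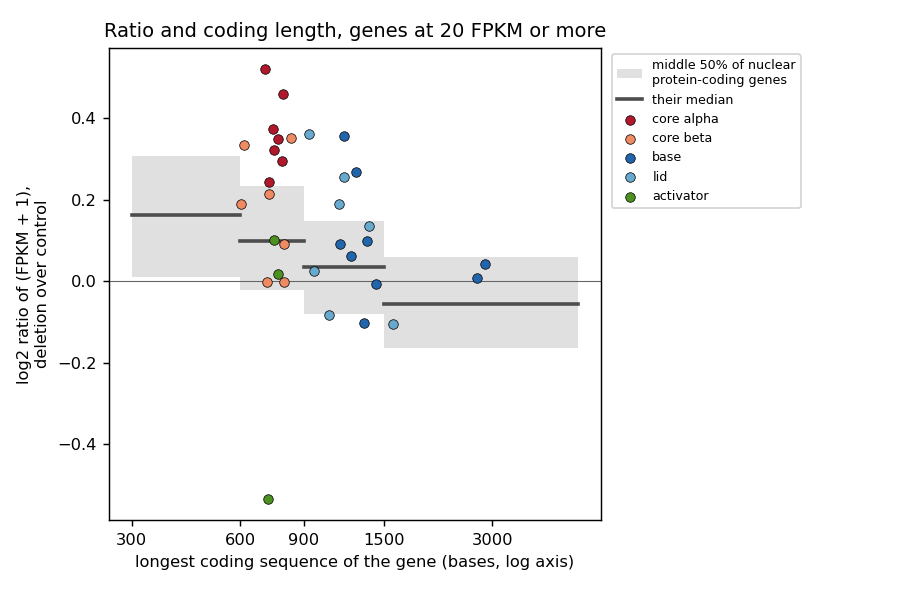
Log2 ratio on the (FPKM + 1) scale, deletion over control, against the longest coding sequence (bases, log axis) for the members at 20 FPKM or more, with the median (line) and middle 50% (grey) of nuclear protein-coding genes in 4 length classes. The grey classes step down with length from 0.16 to -0.056, and the 7 alpha points lie above the 600 to 900 base class.

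Promoters of 34 members (37 starts) were found in the RefSeq table for GRCm38.p6, as windows of 250 bases before to 50 after the start. No entry was found for Psma8, Psmb1, Psmb2, Psmb7, Psmc3, Psmd3 and Psmd7. NFE2L1, the factor known to raise proteasome genes when proteasome activity falls, binds the antioxidant response element, whose core TGACNNNGC, searched on both strands, was in 16.2% of the members' windows and 12.4% of all 32851. None of the 7 alpha genes with a window held it, and Psmb5, Psmb6, Psmc6, Psmd9, Psmd12 and Psme4 did. The CCAAT box was in 35.1% of the members' windows against 37.4% of all, and in 5 of the 7 alpha genes. CGGAAG, the core bound by ETS factors, was in 56.8% against 16.9%, and in 2 of 7 alpha genes, and the palindrome of the nuclear respiratory factor in 16.2% against 6.23%. TTTGAA was in 8.11% against 17.9% and GATAA in 24.3% against 25.4%, while TTCGAA and a ZNF143-like element were in no member window. These 8 motifs were searched on both strands, no motif contains another, and a match is a description of letters. The 250 bases before the start are shown for Psma1 and Psma2, the abundant genes with the largest ratios. Their CCAAT boxes are in capitals (ATTGG is the box on the other strand). Psmb5, a level gene with the highest FPKM, is shown with the antioxidant response core in capitals. These windows lie at chr7:114276117-114276366 (minus strand), chr13:14612992-14613241 (plus strand) and chr14:54617996-54618245 (minus strand).
Psma1: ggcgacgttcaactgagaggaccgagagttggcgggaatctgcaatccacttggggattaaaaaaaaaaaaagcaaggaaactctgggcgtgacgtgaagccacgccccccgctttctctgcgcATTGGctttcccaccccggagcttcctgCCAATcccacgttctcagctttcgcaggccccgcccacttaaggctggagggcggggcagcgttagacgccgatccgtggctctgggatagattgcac
Psma2: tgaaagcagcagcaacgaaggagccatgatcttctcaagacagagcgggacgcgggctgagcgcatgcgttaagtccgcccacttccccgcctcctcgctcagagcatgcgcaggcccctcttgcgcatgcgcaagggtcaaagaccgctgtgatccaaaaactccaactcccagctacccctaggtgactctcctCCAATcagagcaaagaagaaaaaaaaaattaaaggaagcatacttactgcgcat
Psmb5: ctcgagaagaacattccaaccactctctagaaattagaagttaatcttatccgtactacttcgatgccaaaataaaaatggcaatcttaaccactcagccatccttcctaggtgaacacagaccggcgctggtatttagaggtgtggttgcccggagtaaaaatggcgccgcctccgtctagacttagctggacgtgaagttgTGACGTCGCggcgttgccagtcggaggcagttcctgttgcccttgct

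The immunoproteasome genes, which replace catalytic beta subunits after interferon and are typical of blood cells, were expressed in both libraries. Psmb8 was at 20.2 FPKM in the control and 22.1 FPKM in the deletion library, against 113.2 and 112.9 FPKM for Psmb5, which it replaces. The gene model of Psmb8 holds 3381 exon bases and that of Psmb5 899, which enters this comparison. Psmb9 was at 9.44 and 11.9 FPKM, a log2 ratio of 0.30, and Psmb10 was level at 32.6 and 32.6 FPKM. Psmb7, which Psmb10 replaces, was at 24.1 and 31.0 FPKM. In fragments the order was the other way, with 965 and 935 on Psmb10 and 1431 and 1785 on Psmb7. Their gene models hold 1705 and 3421 exon bases, so which gene is the more abundant is not settled. Neither Psmb8 nor Psmb9 gave whole fragments in both libraries, so they have no interval.

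Genes that work with the proteasome were counted in lists, beside 17.6% higher and 18.6% lower at 1.2-fold among all genes tested. Of 5 genes for chaperones of core assembly, 1 passed 1.2-fold, Psmg2, at 54.4 FPKM in the control and 73.5 FPKM in the deletion library, and Psmg1 was at 24.8 and 29.6 FPKM. The lowest were Pomp, the maturation factor of the core, at 17.1 and 16.6 FPKM and Psmg3 at 5.93 and 5.87 FPKM. Of 10 genes for proteins bound to the whole particle, 2 passed 1.2-fold. These were Uchl5, a deubiquitinase of the cap, at 19.4 and 26.04 FPKM, and Sem1, a small lid subunit, at 19.0 and 24.0 FPKM. At the other end of that list were Zfand5 at 29.6 and 28.1 FPKM and Ube3a at 2.85 and 2.71 FPKM.

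None of the 6 genes that supply and activate ubiquitin passed 1.2-fold. Uba1, the main ubiquitin-activating enzyme, was at 148.1 FPKM in the control and 125.4 FPKM in the deletion library. Ubb, a polyubiquitin gene, was highest in ratio at 317.4 and 349.0 FPKM, followed by Rps27a at 344.0 and 346.7 FPKM. Of the 11 genes for shuttle factors and the VCP segregase, 1 was higher, Faf1 at 14.8 and 18.4 FPKM, and 1 lower, Ddi2 at 14.8 and 11.3 FPKM. Nsfl1c was at 17.8 and 21.0 FPKM.

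The list for the NFE2L1 pathway, through which cells restore proteasome gene expression, went both ways. It also holds Nfe2l2 and Keap1, of a related route, so its median is not that of NFE2L1 and its partners alone. Keap1 was at 24.6 FPKM in the control and 21.7 FPKM in the deletion library. The 8 genes of the list had a median log2 ratio of -0.17, with 3 above 0 and 5 below, beside 51.6% of all genes tested below 0. The intervals of Ngly1, Nfe2l2 and Mafg lay above 0, against 26.8% of 11714 genes, and those of the other 5 below, against 30.0%. With the deletion fragments divided by 6, 1 lay above (Ngly1), against 13.9%, and 4 below, against 15.0%. The intervals of the other 3, Nfe2l2, Mafg and Maff, then included 0. Nfe2l1 itself was at 19.8 FPKM in the control and 17.3 FPKM in the deletion library, a log2 ratio of -0.18 with an interval from -0.29 to -0.095. Ddi2, the protease that cuts NFE2L1 into its active form, had the lowest ratio, -0.37, followed by Mafk at 42.9 and 37.7 FPKM. Ngly1, which removes sugars from NFE2L1, had the highest ratio, at 5.18 and 6.59 FPKM, a log2 ratio of 0.30. Nfe2l2 was at 32.9 and 36.3 FPKM. Median log2 ratios of the other lists were 0.13 for the immunoproteasome, 0.091 for core assembly, 0.013 for proteins bound to the particle, -0.054 for ubiquitin supply and -0.0026 for shuttle factors and VCP, beside -0.011 for all genes tested.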

How the data were processed

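RNA of bone marrow HSCs, 1 library per genotype, was sequenced as 150 bp paired-end reads, per the labels' protocols. The deposited values are FPKM, calculated by the authors per gene, and the submitters' processing notes name Bowtie 0.12.2 and mm8 without saying what each was used for. The counting program, its annotation and its use of strand: not given in the sources used here. Columns were matched to samples by description, and 1 row lacked a tab, so the file was split on white space.

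Symbols, exon lengths, coding lengths and GRCm38 positions came from GENCODE M21 (54494 of 54531 identifiers had an exon length, 54408 a listed symbol). FPKM times exon length lay within 0.02 of whole multiples of 1 step for 96.5% (control) and 96.1% (deletion) of genes above 0, which gave depth and fragments. Calculations used Python 3.11.15, numpy 2.4.6, scipy 1.17.1 and Biopython 1.88, and were tested on simulated data. Ratios used a pseudocount of 1 FPKM, which understates low genes, and genes at a mean of at least 1 FPKM. All members were named, with the 2 highest and 2 lowest of each related list, and further genes chosen after their values were seen; some genes this rule picks are not reported here. Paaf1 of the particle list was not analysed here. Members, lists and tests were chosen with earlier results of these data known.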

Additional observations from a re-analysis of the deposited data

How the results depend on the processing

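The 432 recomputed member ratios, over 9 alternatives set in advance and 2 added after seeing the data (copies added, and a minimum mean of 20 FPKM), held no change of sign among members past 1.2-fold, and 386 moved by less than the half-width of their counting interval (0.1 where there was none). These 386 include ratios that could not move. The settings for the minimum mean and the protein-coding background leave every member ratio as it was, and adding copies leaves the 30 members without a copy unchanged. Most of the 46 ratios that did move did so under a common total, where only Psmd10 and Psma8 stayed within the limit. Psmb4, Psmb5, Psmb6, Psmc2, Psmc3, Psmc5, Psmd1, Psmd2, Psmd4, Psmd7, Psmd12, Psme1, Psme3 and Psme4 changed sign in at least 1 setting. No paired analysis was possible because each genotype has 1 library, and leaving out a replicate was not possible either. With a common total, medians were 0.22 for alpha, 0.045 for beta, -0.086 for base, -0.065 for lid, -0.18 for chaperones, -0.13 for activators, -0.046 for all members, -0.016 for the immunoproteasome, -0.13 for proteins bound to the particle, -0.20 for ubiquitin supply, -0.15 for shuttle factors and -0.32 for the NFE2L1 pathway. In that setting 3 members were 1.2-fold higher, 4 lower, 1 was 1.5-fold lower, 18 were above 0 and 22 below. Of all genes 32% were then above 0, 37.7% were 1.2-fold lower, 15% were 1.5-fold lower, 4.11% were 2-fold higher and 7.87% were 2-fold lower. Scaling without mitochondrially encoded genes left 0 members 2-fold higher, 1 that was 1.5-fold lower, 2 that were 1.2-fold lower and 17 below 0. Of all genes 2.2% were then 2-fold higher, 7% were 1.5-fold lower, 24.1% were 1.2-fold lower and only 39.7% lay above 0. With the copies added, 0 members were 1.2-fold lower, beside 18.6% of all genes. With a minimum mean of 5 or 20 FPKM, or a pseudocount of 5, 0 members were 1.5-fold or 2-fold higher, because Psma8 was left out or damped. At 20 FPKM 7 members were below 0, while 58% of all genes lay above 0. Shares of all genes (1.2-fold lower, 1.5-fold higher, 1.5-fold lower, 2-fold higher, 2-fold lower) were 7.32%, 3.27%, 1.15%, 0.843% and 0.775% at 20 FPKM, and 12.4%, 3.34%, 2.42%, 1.08% and 1.27% at 5 FPKM. With a pseudocount of 5 they were 9.2%, 2.3%, 2.55%, 0.6% and 0.957%, with 10.5% at 1.2-fold higher, and with a pseudocount of 0.1 3.82% were 2-fold higher. Among protein-coding genes alone 2.54% and 2.75% were 1.5-fold higher and lower, and 0.488% and 0.752% were 2-fold higher and lower. Depth limited Psma8 and Psmb11 most, and 1 library per genotype gives no spread between mice.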
